A study of Homo sapiens with 18 samples.

Results

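HEK293A cells with LATS1 and LATS2 knocked out were exposed for 4 h to 50 uM CdCl2 or to water, and the RNA of these 2 groups was compared across all genes. The comparison rests on 6 of the 18 libraries of the series, 3 with cadmium and 3 in water, taken by the treatment and genotype in their titles. Of 58336 Ensembl gene IDs, 19393 passed a filter on low counts and were tested. A further 3 groups of 3 libraries are used where a difference is tested, namely the same knockout cells after 250 uM ZnCl2 and wild-type HEK293A cells after 50 uM CdCl2 or water, all at 4 h. HEK293A is a flat, adherent variant of the HEK293 line from human embryonic kidney. How the knockout was made, where the edits lie and how many clones the line holds are not stated in the sources used here, so an effect of the genotype and a difference between lines cannot be told apart. The replicates are called biological in the series' design, with no word of separate cultures or days, so p-values measure only the spread between these libraries, which may be technical. Total counts ran from 25796202 to 37148046 in the 6 libraries, and a gene's level is given as counts per 1000000 counted reads (CPM) after TMM scaling, with the mean ± SD over 3 libraries. Coordinates are those of GENCODE 29 on GRCh38.

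Cadmium is a toxic metal that binds the thiol groups of proteins and of glutathione and competes with zinc. Zinc that is set free in this way activates the transcription factor MTF1, which binds metal response elements in front of metallothionein and zinc exporter genes. Damaged proteins free HSF1 to induce heat shock proteins, oxidised KEAP1 frees NRF2 to induce glutathione and heme enzymes, and kinases of the translation factor eIF2 raise ATF4 and its targets. LATS1 and LATS2 are the Hippo pathway kinases that phosphorylate YAP and TAZ, coactivators of TEAD transcription factors, so that cells without them hold YAP and TAZ active.

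Both targeted genes were still counted in the libraries labelled knockout. LATS1 (ENSG00000131023, chromosome 6, 149658153 to 149718256, minus strand) had 51.0, 54.1 and 54.5 CPM with cadmium, against 46.1, 44.0 and 45.6 CPM in water. In wild type it had 92.5, 96.0 and 97.3 CPM with cadmium and 78.3, 82.0 and 77.3 CPM in water, so every knockout library lay below every wild-type library. LATS2 (ENSG00000150457, chromosome 13, 20973032 to 21061547, minus strand) had 25.7, 23.8 and 25.5 CPM with cadmium, against 18.2, 18.9 and 18.7 CPM in water, and in wild type 41.9, 39.0 and 44.7 CPM with cadmium and 16.4, 16.5 and 16.2 CPM in water. An edit that stops a protein need not remove its transcript, so these counts check the labels for LATS1 in part and for LATS2 not at all. Of the HEK293 marker list, KRT8, KRT18, VIM, NEFL and NEFM were tested, while PAX2 had 11 counts over the 3 cadmium libraries and 13 over the 3 water libraries. The 6 markers summed to 2759 to 3036 CPM with cadmium and 2718 to 2757 CPM in water. Markers of other cell types were low, at 51.6 to 56.7 CPM with cadmium and 50.1 to 56.5 CPM in water for fibroblasts, 0.590 to 0.655 and 0.628 to 1.13 CPM for keratinocytes and epithelium, and 3.06 to 4.17 and 2.33 to 3.02 CPM for blood cells. KRT1 and HBB had no counts in either group. Of the tested members of these lists VIM (log2 fold change 0.37) and CD14 (0.80) were called higher, NEFL (-0.38) and COL3A1 (-0.21) lower, and CDH1, the keratinocyte and epithelial marker tested, was not called. In bulk RNA, fewer cells of a type and less RNA per cell cannot be told apart. Mitochondrially encoded genes held 4.34 ± 0.144% of counts with cadmium and 4.40 ± 0.189% in water (two-sided exact permutation test, p = 0.5, where 0.1 is the smallest p that 3 against 3 allows). The 50 genes with most counts held 14.9 ± 0.207% with cadmium and 12.4 ± 0.184% in water (exact permutation test, p = 0.1). The first principal component of the 6 libraries held 67.6% of the variance and separated cadmium from water. On the second, with 8.79%, water replicate 1 stood apart at 25.6, and the other libraries lay between -14.0 and 7.67.

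Cadmium moved a large part of the transcriptome within 4 h. With edgeR's quasi-likelihood test and Benjamini-Hochberg adjustment, 9110 genes (47.0% of those tested) passed the threshold of 0.05, of which 4495 (23.2%) were higher and 4615 (23.8%) lower with cadmium. Changes of 2-fold or more were mostly upward, with 951 genes (4.90%) higher and 314 (1.62%) lower. The 3 cadmium and 3 water libraries did not overlap for 10553 genes (54.4%). The even split of small changes rests on the scaling. When libraries were scaled by their total counts alone, 2989 genes were called higher and 7401 lower, and the median over all tested genes lay at -0.12 on the log2 scale in place of -0.0025. Counts of many lists moved under that scaling, and for several lists they are given below with it. List counts below stand beside the 23.2% higher and 23.8% lower among all tested genes. The lists were chosen with earlier results of these data known, so their counts are descriptions.

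**Figure D1:**
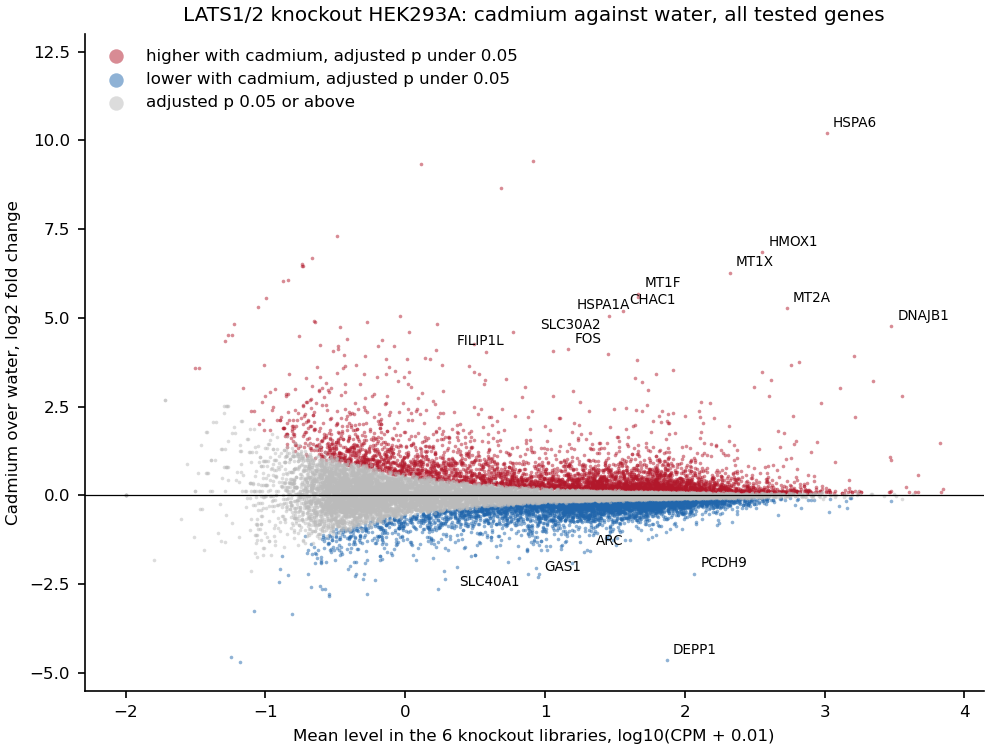
Each point is 1 of 19393 tested genes, with its mean level over the 6 knockout libraries, log10(CPM + 0.01), on the x axis and the log2 fold change of cadmium over water on the y axis. Red and blue points passed an adjusted p of 0.05, and the genes furthest from 0 among those with 5 CPM or more lie far more often above the zero line than below it, led by HSPA6 at 10.20 and with DEPP1 lowest at -4.63.

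Metallothioneins and the zinc exporters SLC30A1 and SLC30A2 rose steeply, and the 3 metallothioneins counted well in both groups were higher by 5.28 to 6.27 on the log2 scale. Metallothioneins are small cysteine-rich proteins that bind zinc and cadmium, and SLC30A1 and SLC30A2 encode transporters that move zinc out of the cytosol. Promoters of 3 of these genes are shown because they hold matches to the metal response element, the site of MTF1. The sequences are RefSeq's for GRCh38.p14, from 250 bases before to 50 after the annotated start, with each match to TGCNCNC on either strand in capitals (GNGNGCA where it is read from the other strand).
MT2A, chr16:56608334-56608633 on the plus strand: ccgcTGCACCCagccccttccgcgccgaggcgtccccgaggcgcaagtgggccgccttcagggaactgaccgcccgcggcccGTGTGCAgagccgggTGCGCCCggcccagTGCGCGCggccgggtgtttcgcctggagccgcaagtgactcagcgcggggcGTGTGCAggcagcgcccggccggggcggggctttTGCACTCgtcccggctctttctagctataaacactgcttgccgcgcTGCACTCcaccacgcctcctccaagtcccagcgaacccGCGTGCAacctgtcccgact
MT1X, chr16:56682220-56682519 on the plus strand: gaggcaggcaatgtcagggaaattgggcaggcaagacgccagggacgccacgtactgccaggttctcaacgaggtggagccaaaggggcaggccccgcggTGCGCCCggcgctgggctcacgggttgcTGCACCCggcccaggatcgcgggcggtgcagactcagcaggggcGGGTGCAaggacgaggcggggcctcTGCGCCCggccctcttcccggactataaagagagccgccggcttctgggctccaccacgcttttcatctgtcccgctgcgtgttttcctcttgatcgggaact
SLC30A2, chr1:26046069-26046368 on the minus strand: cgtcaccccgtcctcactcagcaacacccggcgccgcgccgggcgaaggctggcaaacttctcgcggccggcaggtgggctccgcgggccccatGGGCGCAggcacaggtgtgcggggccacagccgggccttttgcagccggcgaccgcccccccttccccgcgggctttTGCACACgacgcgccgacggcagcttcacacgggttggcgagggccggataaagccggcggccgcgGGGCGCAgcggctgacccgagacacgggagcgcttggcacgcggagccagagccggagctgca
MT2A held 8 matches, MT1X 4 and SLC30A2 3. The element is short and degenerate, and 55.2% of 27305 promoters in the table held at least 1 match, with a median of 1. Matches may overlap each other. The 4 metallothionein promoters in the table (MT1B, MT1H, MT1X and MT2A) held between 4 and 8. Among genes higher by 2-fold or more 63.0% of 492 promoters had a match, and among those lower by 2-fold or more 63.7% of 160 had one, beside 63.5% of those of tested genes. A match is a description of letters and not a bound site.

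MT2A (ENSG00000125148, chromosome 16, 56608199 to 56609497, plus strand) was the most abundant metallothionein, with 1078, 1031 and 1020.3 CPM with cadmium, against 24.8, 29.3 and 26.5 CPM in water. Its level differed by 5.28 ± 0.06 on the log2 scale (± SE, adjusted p = 9.3e-40). MT1X (ENSG00000187193) had 428, 410.3 and 404 CPM with cadmium, against 5.08, 5.24 and 5.68 CPM in water, a change of 6.27 ± 0.06. MT1F (ENSG00000198417) had 92.5, 89.0 and 91.2 CPM with cadmium, against 1.59, 1.63 and 2.01 CPM in water, a change of 5.68 ± 0.09. For each of these 3 genes the lowest cadmium library lay far above the highest water library. The remaining members were at or near 0 in water. MT1G had 881 counts over the 3 cadmium libraries and 2 over the 3 water libraries, a ratio of 449 (95% counting interval 124 to 3713). MT1B had 231 counts with cadmium and 0 in water, at least 78.5-fold higher when water is set to 3 counts summed over its libraries. MT1H had 33 and 0 counts, at least 11.2-fold higher. MT1E had 6 and 0 counts and MT1M 1 and 0, while MT1A and MT3 had none. In all, 6 of 10 metallothioneins were tested and all 6 rose, but MT1B, MT1G and MT1H passed the filter only through the metal-treated libraries and had to differ. The MT1 genes are near copies of each other, and how the authors' counting treated reads that fit several genes is not stated in the sources used here, so the division between members is uncertain. Summed over the list, the libraries held 1529 to 1612 CPM with cadmium and 31.5 to 36.3 CPM in water.

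Among zinc transporters, SLC30A1 and SLC30A2 stood apart from the other members of the list, whose changes lay between -0.72 and 0.36. SLC30A1 (ENSG00000170385, chromosome 1, 211571568 to 211578742, minus strand), the plasma membrane zinc exporter, had 627, 664 and 669 CPM with cadmium, against 58.6, 58.3 and 59.4 CPM in water (log2 fold change 3.47 ± 0.04, adjusted p = 1.8e-41). SLC30A2, which loads zinc into vesicles, had 58.1, 54.8 and 55.2 CPM with cadmium, against 1.76, 1.66 and 1.68 CPM in water (log2 fold change 5.04 ± 0.12). Among importers of the SLC39 family, SLC39A10 fell by 0.72 to 40.6 ± 1.21 CPM with cadmium, against 66.7 ± 3.19 CPM in water, and SLC39A13 fell by 0.38. Over the list of zinc and cadmium transporters with MTF1, 5 of 23 tested members rose and 7 fell, beside 23.2% and 23.8% of all tested genes. Their median log2 fold change was -0.03, beside -0.0025 over all tested genes. Under scaling by total counts 3 rose and 12 fell, with a median of -0.14. MTF1 itself changed by 0.12 ± 0.05, no more than the shift between scalings given above. SLC40A1 (ENSG00000138449), the iron exporter ferroportin, was among the genes that fell most, at 3.17, 2.16 and 2.55 CPM with cadmium, against 13.9, 11.9 and 11.6 CPM in water (log2 fold change -2.21 ± 0.13).

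**Figure D2:**
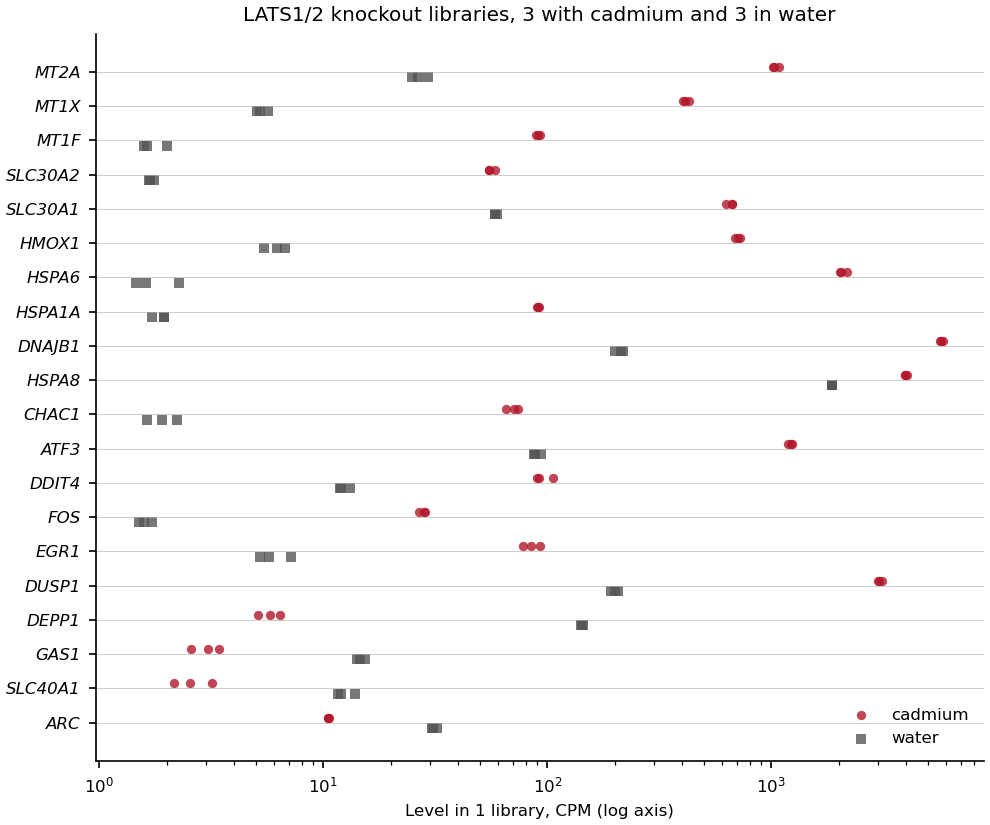
Levels of 20 genes in each knockout library, in CPM on a log axis, with red circles for the 3 cadmium libraries and grey squares for the 3 water libraries. The 2 sets of 3 points do not overlap for any gene shown, and lie furthest apart for HSPA6, at 2073 ± 83.0 CPM with cadmium and 1.78 ± 0.423 CPM in water.

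Most genes for heat shock proteins and their cochaperones rose. Of 15 HSP70 genes tested 13 rose and none fell, of 11 DNAJ cochaperones, all of the cytosol except DNAJC3 of the endoplasmic reticulum, 8 rose and none fell, and of 24 genes for HSP90, chaperonins and their cochaperones 20 rose and 1 fell, beside 23.2% higher and 23.8% lower among all tested genes. The medians were 0.85, 0.29 and 0.29. Under scaling by total counts 13, 7 and 15 rose and 1, 2 and 3 fell. The HSP70 count includes the pseudogene HSPA7, which passed the filter only through metal-treated libraries and had to differ, and HSPA9, HSPD1 and HSPE1 on these lists are mitochondrial. The promoters below are shown because they hold the heat shock element searched here, 3 adjoining units of GAA in alternating orientation on either strand, in capitals.
HSPA6, chr1:161524290-161524589 on the plus strand: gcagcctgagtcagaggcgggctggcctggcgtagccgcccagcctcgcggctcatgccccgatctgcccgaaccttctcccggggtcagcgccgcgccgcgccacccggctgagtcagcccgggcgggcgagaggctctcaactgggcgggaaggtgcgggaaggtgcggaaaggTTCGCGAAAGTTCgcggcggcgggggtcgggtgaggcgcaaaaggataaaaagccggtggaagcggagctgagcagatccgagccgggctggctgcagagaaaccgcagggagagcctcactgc
HSPA8, chr11:123062087-123062386 on the minus strand: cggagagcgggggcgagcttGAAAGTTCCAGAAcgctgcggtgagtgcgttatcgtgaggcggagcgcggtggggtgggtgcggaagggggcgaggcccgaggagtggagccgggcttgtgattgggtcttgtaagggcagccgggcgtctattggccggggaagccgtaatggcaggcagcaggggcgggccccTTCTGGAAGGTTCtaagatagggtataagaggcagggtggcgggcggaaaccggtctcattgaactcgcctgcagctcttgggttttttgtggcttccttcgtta
The element was found in 0.487% of all 27305 promoters, in 0.351% of those of tested genes and in 5 of 53 promoters of the chaperone lists (9.43%). It stood in 7 of 492 (1.42%) of genes higher by 2-fold or more, and in none of 160 of those lower by 2-fold or more. HSPA1A and HSPA1B held no match to this exact form in this window.

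HSPA6 (ENSG00000173110, chromosome 1, 161524540 to 161526910, plus strand), an inducible HSP70 that is nearly silent in unstressed cells, had 2168, 2016 and 2035 CPM with cadmium, against 1.62, 2.26 and 1.46 CPM in water. The change of 10.20 ± 0.16 was the highest among genes with 5 CPM or more (adjusted p = 3.4e-36). Its near copy HSPA7 had 1490 counts over the cadmium libraries and 2 over the water libraries, a ratio of 759 (95% counting interval 210 to 6276), and reads of the pair may be divided uncertainly. HSPA1A, the classical inducible HSP70, had 91.8, 89.8 and 91.2 CPM with cadmium, against 1.94, 1.72 and 1.93 CPM in water (log2 fold change 5.60 ± 0.09). Its near copy HSPA1B had 6223 ± 85.3 CPM with cadmium and 897 ± 57.9 CPM in water (log2 fold change 2.79 ± 0.05). HSPA8, the constitutive HSP70, was abundant in water and rose to 3987 ± 34.6 CPM, against 1869 ± 1.90 CPM in water. HSPA1B and HSPA8 were singled out after their values were seen. HSPH1, a nucleotide exchange factor of the HSP70s, had 2293 ± 19.0 CPM with cadmium and 281 ± 4.67 CPM in water (log2 fold change 3.03 ± 0.04). DNAJB1 (ENSG00000132002, chromosome 19, 14514770 to 14529770, minus strand), the HSP40 that delivers clients to HSP70, had 5859.6, 5662 and 5719.6 CPM with cadmium, against 214, 219 and 200.3 CPM in water (log2 fold change 4.77 ± 0.04). DNAJB4, DNAJB6 and DNAJA1 changed by 2.08, 1.14 and 1.02. HSP90AA1, the inducible HSP90, reached 9796 ± 92.3 CPM, against 3485 ± 109.6 CPM in water, and HSP90AB1, the constitutive HSP90, 4011 ± 61.9 CPM, against 1998 ± 39.1 CPM. CHORDC1 and FKBP4, cochaperones of HSP90, changed by 1.31 and 0.74. HSF1, the factor that drives these genes, was the member called lower, by 0.14. Leaving out 1 library at a time left between 0 and 2 members of that list lower.

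Small heat shock proteins and the machinery for disposal of damaged proteins rose in part. BAG3 (ENSG00000151929), which couples HSP70 to autophagy, had 1077, 1063 and 1076 CPM with cadmium, against 81.4, 87.3 and 85.6 CPM in water (log2 fold change 3.66 ± 0.05). Its partner HSPB8 had 109.9 ± 2.26 CPM with cadmium and 36.2 ± 0.417 CPM in water, and HSPB1 had 332 ± 21.4 CPM with cadmium and 84.8 ± 3.84 CPM in water, changes of 1.60 and 1.97. Of 12 tested small heat shock and BAG genes 7 rose and 3 fell (BAG4, BAG5 and IFT25, by 0.30 or less), and 5 rose and 5 fell under scaling by total counts. BAG2 rose by 0.42, with counts on the other strand equal to 14.9% of its count. The list of ubiquitin genes and autophagy adaptors holds 19 tested genes, among them SERPINH1, SERTAD1 and ARC, which are neither. Of the 19 genes 14 rose and 2 fell, with a median of 0.83 (12 and 4, with a median of 0.72, under scaling by total counts). ZFAND2A, an inducible proteasome-associated protein, had 88.5 ± 6.07 CPM with cadmium and 9.82 ± 0.802 CPM in water (log2 fold change 3.18 ± 0.07). HERPUD1, of the degradation machinery of the endoplasmic reticulum, had 259 ± 3.01 CPM with cadmium and 43.0 ± 1.58 CPM in water, and SERPINH1, the collagen chaperone HSP47, 726 ± 21.5 CPM with cadmium and 206 ± 6.26 CPM in water. The members that fell were OPTN, by 0.17, and ARC, described below. The 33 proteasome subunits moved little, with 21 higher, none lower and a median of 0.13, which became 8 higher, 6 lower and a median of 0.01 when libraries were scaled by total counts. PSMA6 and PSMD12, of the core and the lid, changed by 0.55 ± 0.08 and 0.38 ± 0.03.

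Genes of the oxidative stress response were led by heme oxygenase. HMOX1 (ENSG00000100292, chromosome 22, 35380361 to 35394214, plus strand), which degrades heme and is induced through NRF2 and other factors, had 726, 689 and 712 CPM with cadmium, against 6.24, 6.77 and 5.43 CPM in water (log2 fold change 6.86 ± 0.13, adjusted p = 1.6e-33). SLC7A11, the cystine importer that feeds glutathione synthesis, had 116 ± 11.6 CPM with cadmium and 22.1 ± 0.671 CPM in water (log2 fold change 2.39 ± 0.06). GCLM, a subunit of the enzyme that limits glutathione synthesis, had 218 ± 15.4 CPM with cadmium and 52.6 ± 2.78 CPM in water (log2 fold change 2.05 ± 0.05). MAFG, a DNA-binding partner of NRF2, had 266 ± 6.48 CPM with cadmium and 58.8 ± 3.13 CPM in water (log2 fold change 2.17 ± 0.04). In all, 19 of 26 tested NRF2 targets rose and 2 fell, with a median of 0.50, and 5 did not pass the test. KEAP1 was one of these 5, at -0.05 ± 0.03, as was TXN, at 0.06 ± 0.03. The fall of PGD, by 0.07, was no larger than the shift between scalings, and SLC48A1 fell by 0.31. The antioxidant response element TGACNNNGC stood in 5 of 20 promoters of this list (25.0%), in 14.9% of those of tested genes and in 13.6% of all promoters.

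All 26 tested genes of the integrated stress response list changed. This response raises ATF4, which induces genes for amino acid supply and for recovery of translation. Of these 24 rose and 2 fell, with a median of 1.61. The promoters below are shown because they hold the ATF4 element searched here, TGATGNAA (TTNCATCA on the other strand), in capitals.
CHAC1, chr15:40953221-40953520 on the plus strand: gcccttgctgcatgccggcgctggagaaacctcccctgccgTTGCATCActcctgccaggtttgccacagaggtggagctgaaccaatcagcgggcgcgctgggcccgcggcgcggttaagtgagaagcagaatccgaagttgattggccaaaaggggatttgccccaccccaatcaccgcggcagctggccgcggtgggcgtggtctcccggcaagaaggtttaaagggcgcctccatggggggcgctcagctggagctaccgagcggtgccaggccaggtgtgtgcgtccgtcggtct
ATF3, chr1:212565157-212565456 on the plus strand: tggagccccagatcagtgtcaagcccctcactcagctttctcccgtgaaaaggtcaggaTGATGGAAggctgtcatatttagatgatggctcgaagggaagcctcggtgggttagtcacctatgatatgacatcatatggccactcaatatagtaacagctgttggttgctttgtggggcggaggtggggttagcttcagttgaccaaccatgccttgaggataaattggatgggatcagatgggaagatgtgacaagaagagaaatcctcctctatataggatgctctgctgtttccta
The element stood in 6 of 22 promoters of this list (27.3%). It stood in 5.28% of 492 promoters of genes higher by 2-fold or more and in 1.25% of 160 of those lower. Among promoters of tested genes 1.78% held it, and 3.67% of all promoters did. Only 1 window per gene was searched. That of ATF3 lies at the upstream end of its span, and any start further along the gene is not covered. CHAC1 (ENSG00000128965, chromosome 15, 40952962 to 40956519, plus strand), which degrades glutathione, had 74.0, 70.6 and 65.5 CPM with cadmium, against 1.90, 2.23 and 1.63 CPM in water (log2 fold change 5.20 ± 0.09). ATF3 (ENSG00000162772, chromosome 1, 212565334 to 212620777, plus strand), a transcription factor of the ATF and CREB family, had 1232, 1188 and 1219 CPM with cadmium, against 87.8, 94.1 and 87.0 CPM in water (log2 fold change 3.76 ± 0.05). DDIT3, which encodes CHOP, had 80.5 ± 6.09 CPM with cadmium and 8.12 ± 0.191 CPM in water (log2 fold change 3.31 ± 0.07), with counts on the other strand equal to 19.0% of its count. PPP1R15A, which directs dephosphorylation of eIF2, had 746 ± 22.7 CPM with cadmium and 77.9 ± 1.74 CPM in water (log2 fold change 3.26 ± 0.04). DDIT4 and SESN2, both inhibitors of mTORC1, had 2.96 and 2.63 on the same scale, and TRIB3 and STC2 had 2.32 and 2.23. The members that fell were ATF5, by 0.92, and ERO1A, by 0.12, named after their values were seen. ATF4 itself, which is controlled mainly at translation, changed by 0.65 ± 0.03 at the level of its RNA.

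Amino acid transporters followed the same direction, with 9 of 10 tested members higher and none lower (median 0.83). SLC38A2, the neutral amino acid transporter SNAT2, had 897, 959.9 and 938 CPM with cadmium, against 327, 319 and 323 CPM in water (log2 fold change 1.53 ± 0.03). SLC6A9, a glycine transporter, and SLC1A4, a neutral amino acid transporter, changed by 1.05 and 0.87. Serine and one-carbon enzymes were divided, with 6 of 12 higher and 4 lower. MTHFD2, ALDH1L2 and PSAT1 changed by 0.71, 0.66 and 0.56, and ALDH1B1, a mitochondrial aldehyde dehydrogenase, fell by 0.94. Of 20 cytosolic tRNA synthetases 9 rose and 5 fell, with a median of 0.06. When libraries were scaled by total counts 8 rose and 9 fell, with a median of -0.06. CARS1, YARS1, GARS1 and TARS1 had the highest changes, between 0.40 and 0.62.

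Genes of the endoplasmic reticulum's unfolded protein response had a median near that of all genes, with a few members well above it. Of 22 members 10 rose and 2 fell, with a median of 0.07, which became -0.05 with 7 higher and 11 lower under scaling by total counts. XBP1, the transcription factor spliced by IRE1, had 330.1 ± 5.86 CPM with cadmium and 123 ± 3.30 CPM in water (log2 fold change 1.42 ± 0.03). DNAJB9 and HSPA5, chaperones of this compartment, had 31.4 ± 0.412 CPM with cadmium and 12.8 ± 0.582 CPM in water, and 1557 ± 39.3 CPM with cadmium and 809 ± 7.34 CPM in water. HERPUD1, also on this list, was given above. PDIA4, HYOU1 and SDF2L1, further luminal chaperones or folding enzymes, did not pass the test, at -0.04 ± 0.03, -0.08 ± 0.03 and -0.14 ± 0.07.

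**Figure D3:**
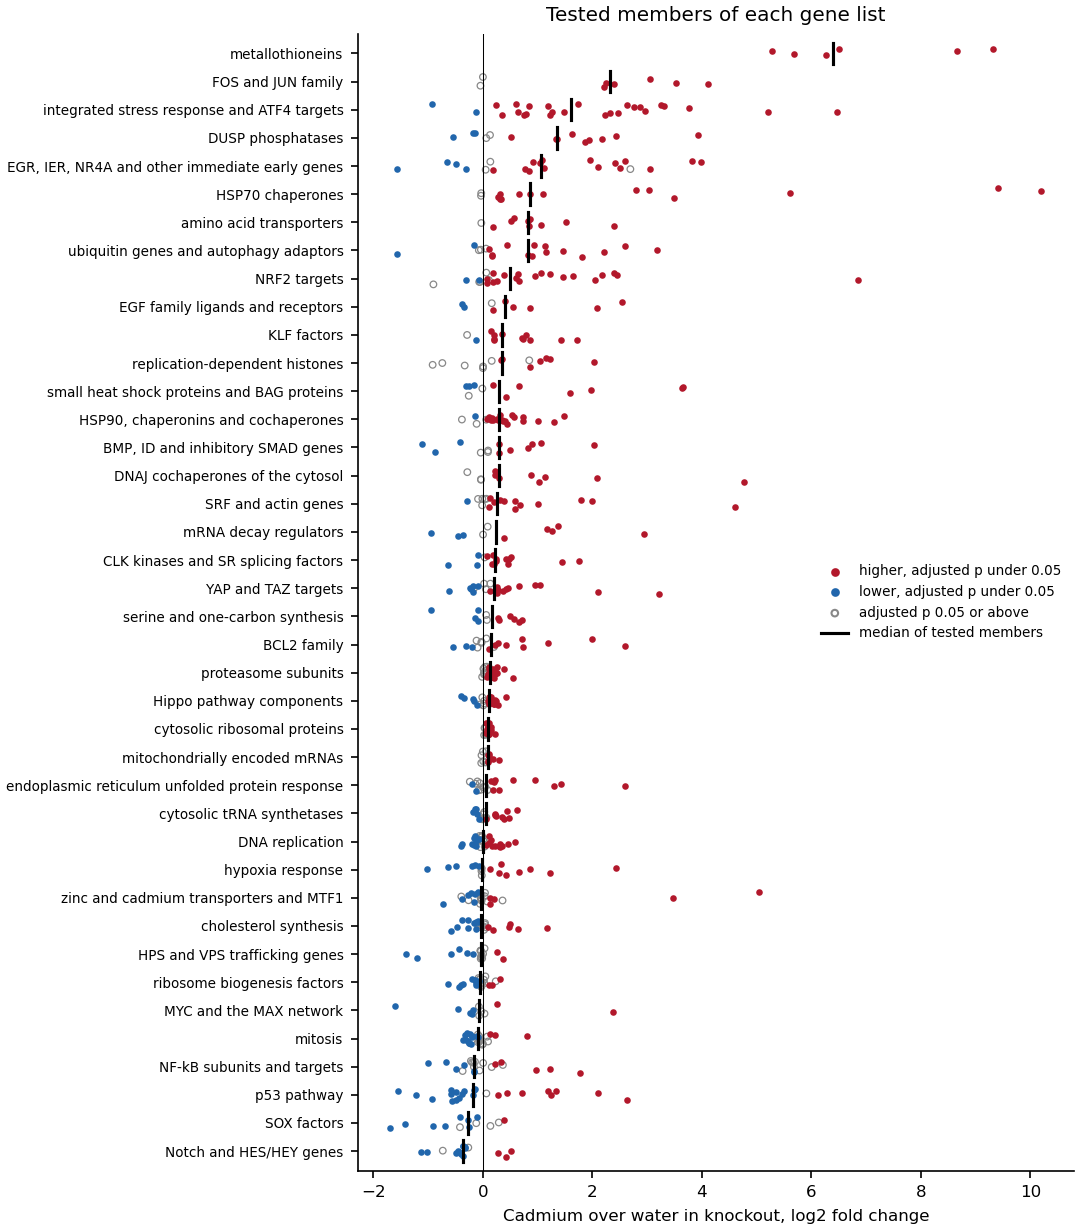
Log2 fold changes of cadmium over water in knockout cells for the tested members of 40 gene lists, sorted by the median of each list (black bar), with members called higher in red, called lower in blue and not called as open grey circles. Metallothioneins lie highest, 3 of their 6 points being genes that passed the filter only through metal-treated libraries, and Notch genes have the lowest median, at -0.36. Medians between -0.12 and 0.12, such as those of ribosomal proteins, tRNA synthetases and mitochondrially encoded mRNAs, lie within the shift of about 0.12 between scalings, and several change sign with it.

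Immediate early genes, which are transcribed within minutes of a signal without new protein synthesis, were high at 4 h of cadmium. All 4 FOS genes rose, as did JUN and JUND, giving 6 of 8 members of the FOS and JUN list higher and none lower (median 2.32). FOS (ENSG00000170345, chromosome 14, 75278774 to 75282230, plus strand) had 28.5, 26.6 and 28.1 CPM with cadmium, against 1.59, 1.72 and 1.51 CPM in water (log2 fold change 4.12 ± 0.10). FOSL1 had 152 ± 3.48 CPM with cadmium and 13.1 ± 0.686 CPM in water, FOSB 12.9 ± 0.701 CPM with cadmium and 1.55 ± 0.0653 CPM in water, and FOSL2 214 ± 3.35 CPM with cadmium and 40.7 ± 0.461 CPM in water. JUNB, in contrast, was at -0.04 ± 0.07 and did not pass the test. The promoter of EGR1 is shown for its CArG boxes, the sites of serum response factor, in capitals.
EGR1, chr5:138465229-138465528 on the plus strand: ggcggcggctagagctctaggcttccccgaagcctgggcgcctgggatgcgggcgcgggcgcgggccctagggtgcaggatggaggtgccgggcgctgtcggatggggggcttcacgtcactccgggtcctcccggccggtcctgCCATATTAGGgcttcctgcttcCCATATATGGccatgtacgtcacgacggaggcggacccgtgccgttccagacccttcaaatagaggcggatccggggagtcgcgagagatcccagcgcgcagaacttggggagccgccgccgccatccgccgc
It held 2 such boxes. Any such box stood in 1.29% of all promoters, 1.04% of those of tested genes and 2 of 23 of the immediate early lists (8.70%). EGR1 (ENSG00000120738, chromosome 5, 138465490 to 138469315, plus strand), a zinc finger transcription factor, had 93.1, 78.2 and 84.5 CPM with cadmium, against 5.22, 7.18 and 5.70 CPM in water (log2 fold change 3.82 ± 0.08). MAFF, a small MAF protein, had 53.2 ± 1.48 CPM with cadmium and 3.35 ± 0.122 CPM in water (log2 fold change 3.99 ± 0.08). IER5 had 562 ± 13.4 CPM with cadmium and 67.9 ± 1.95 CPM in water (log2 fold change 3.05 ± 0.04). MCL1, an antiapoptotic BCL2 protein, had 1628 ± 26.0 CPM with cadmium and 270.2 ± 3.72 CPM in water (log2 fold change 2.59 ± 0.03). Of 22 genes on this list 15 rose and 4 fell (NR4A3, CITED2, PHLDA1 and ARC), with a median of 1.07. ARC, an activity-regulated gene of neurons, had 10.6, 10.5 and 10.5 CPM with cadmium, against 30.5, 30.8 and 32.1 CPM in water (log2 fold change -1.56 ± 0.07).

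Negative regulators of the same signals were high as well. DUSP1 (ENSG00000120129, chromosome 5, 172768090 to 172771195, minus strand), a phosphatase that inactivates MAP kinases, had 3120.3, 3029 and 2987 CPM with cadmium, against 207, 201 and 192 CPM in water (log2 fold change 3.93 ± 0.09). DUSP8, DUSP5 and SPRY4 changed by 2.43, 1.94 and 2.19, and 9 of 14 members of the phosphatase and Sprouty list rose and 3 fell (median 1.35). ZFP36, which brings AU-rich mRNAs to decay, had 28.2 ± 1.98 CPM with cadmium and 3.67 ± 0.248 CPM in water (log2 fold change 2.95 ± 0.08). ZC3H12A, an RNase, and ZFP36L1 changed by 1.38 and 1.26, so that 5 of 10 regulators of mRNA decay rose, while 3 fell. Of 13 KLF factors 11 rose and 1 fell (median 0.35), led by KLF6 with 119 ± 3.54 CPM with cadmium and 36.3 ± 2.04 CPM in water, although 7 rather than 11 were called higher under scaling by total counts. HBEGF, a ligand of the EGF receptor, had 91.0 ± 2.83 CPM with cadmium and 15.6 ± 0.179 CPM in water (log2 fold change 2.54 ± 0.09). Of 9 EGF family genes 6 rose, and 4 under scaling by total counts. ERBB3 fell by 0.35, as did ERBB2, by 0.38, a gene with counts on the other strand equal to 20.1% of its count.

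YAP and TAZ targets responded unevenly in these cells without LATS kinases. Of 22 targets 12 rose and 6 fell, with a median of 0.20, beside 23.2% higher and 23.8% lower among all tested genes. ANKRD1 (ENSG00000148677, chromosome 10, 90912096 to 90921276, minus strand), a muscle ankyrin repeat protein and widely used reporter of YAP activity, had 4053, 3962 and 4073 CPM with cadmium, against 454, 427 and 412 CPM in water (log2 fold change 3.23 ± 0.13). CCN1, a matricellular protein, had 782, 763 and 787 CPM with cadmium, against 381, 368 and 378 CPM in water (log2 fold change 1.05 ± 0.07). GADD45A and NUAK2 changed by 2.10 ± 0.07 and 0.95 ± 0.08. CCN2, the partner of CCN1 on most lists of YAP targets, was at 403 ± 6.66 CPM with cadmium and 397 ± 16.5 CPM in water, a difference of 0.02 ± 0.06 that did not pass the test. AMOTL2 and AXL rose by 0.66 and 0.46, whereas IGFBP3 fell by 0.63. The 23 Hippo pathway components changed by less than 0.45 in size each, with 13 higher and 5 lower (4 and 8 under scaling by total counts). Among them AMOT, an angiomotin that binds YAP, fell by 0.39 and MOB1A, a LATS cofactor, by 0.35, while LATS2 rose by 0.43 and WWC2 by 0.27.

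Genes of the actin cytoskeleton and of BMP signalling held further large changes. FILIP1L (ENSG00000168386), a filamin-interacting protein, had 11.1, 11.0 and 11.6 CPM with cadmium, against 0.458, 0.408 and 0.502 CPM in water (log2 fold change 4.60 ± 0.20). TAGLN, an actin-binding protein, had 24.3 ± 2.16 CPM with cadmium and 7.00 ± 0.0347 CPM in water, and FHL2 and ZYX changed by 1.02 and 0.68. In the list of SRF and actin genes 12 of 18 rose and 1 fell. SMAD7, an inhibitor of TGF-beta and BMP receptors, had 121 ± 2.74 CPM with cadmium and 29.4 ± 1.23 CPM in water (log2 fold change 2.04 ± 0.04). ID3 and ID1, targets of BMP signalling, changed by 1.07 and 0.89, whereas the ligand BMP4 fell by 1.12 to 13.9 ± 0.939 CPM with cadmium, against 30.4 ± 0.373 CPM in water. Of the 13 genes 7 rose and 3 fell.

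DEPP1, GAS1, SLC40A1 and PCDH9 had the lowest log2 fold changes among the named genes. DEPP1 (ENSG00000165507, chromosome 10, 44970981 to 44978810, minus strand), a target of FOXO factors linked to autophagy, had 5.77, 5.11 and 6.37 CPM with cadmium, against 142, 145 and 141 CPM in water. Its change of -4.63 ± 0.06 was the lowest among genes with 5 CPM or more (adjusted p = 1e-38). GAS1 (ENSG00000180447), a growth arrest gene and Hedgehog coreceptor, had 2.57, 3.42 and 3.07 CPM with cadmium, against 15.3, 14.6 and 14.1 CPM in water (log2 fold change -2.30 ± 0.10). PCDH9, a protocadherin, had 38.9, 43.2 and 43.8 CPM with cadmium, against 196, 194 and 187 CPM in water (log2 fold change -2.20 ± 0.05). MIR34AHG, the host transcript of miR-34a, had 3.20 ± 0.404 CPM with cadmium and 14.8 ± 0.888 CPM in water, with counts on the other strand equal to 13.8% of its count. SHISA2, DIPK2A and RTN4RL1 changed by -2.04, -1.89 and -1.87. MRM1, a methyltransferase of mitochondrial ribosomal RNA, changed by -1.75, and IMP3, a protein of the U3 small nucleolar ribonucleoprotein, by -1.60. PHLDA3, LRRC3, NR2F1 and LRFN3 lay between -1.55 and -1.53. The 3 cadmium libraries lay below the 3 water libraries for every one of these genes, as the rule for naming them required.

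Notch and SOX genes fell more often than they rose. Of 16 Notch and HES/HEY genes 11 fell and 3 rose, with a median of -0.36. Among all tested genes 23.8% fell and 23.2% rose. The ligands DLL1 and JAG2 fell by 1.01 and 0.50, and the target HES1 by 0.45, while the receptor NOTCH1 rose by 0.52. Of 13 SOX factors 8 fell and 1 rose (median -0.27). At 5 CPM or more, SOX11, SOX13 and SOX4 fell by 0.42, 0.27 and 0.25, and SOX6 rose by 0.39. HPS6 and VPS18, which encode subunits of complexes that sort or tether vesicles bound for lysosomes and related organelles, had 17.7 ± 1.22 CPM with cadmium and 46.8 ± 1.91 CPM in water, and 16.7 ± 0.950 CPM with cadmium and 38.3 ± 2.32 CPM in water. Over the HPS and VPS list 6 of 17 fell and 2 rose, with a median of -0.04, and 14 fell and 2 rose, with a median of -0.15, under scaling by total counts.

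Lists of growth and death regulators held members that rose and members that fell. Of 23 genes of the p53 pathway 8 rose and 14 fell (median -0.18), beside 23.2% and 23.8% of all tested genes. SESN2, GADD45A and PLK3 rose by 2.63, 2.10 and 1.34, of which SESN2 is also on the list of ATF4 targets and GADD45A on that of YAP and TAZ targets. PHLDA3 was the member that fell most. In the BCL2 family 9 of 18 rose and 3 fell, but 7 rose and 7 fell under scaling by total counts. The proapoptotic HRK, PMAIP1 and BBC3 rose by 1.99, 1.19 and 0.72, beside the antiapoptotic MCL1 given above. Of 21 NF-kB subunits and targets 5 rose and 6 fell (median -0.16), shares near the 23.2% and 23.8% of all tested genes. NFKBIZ, a nuclear inhibitor protein, rose by 1.77, while NFKBIA and NFKBIE, cytosolic inhibitors, fell by 0.68 and 0.48. MYC was at 35.8, 38.8 and 37.9 CPM with cadmium, against 38.7, 37.9 and 38.0 CPM in water, and the difference of -0.03 ± 0.05 did not pass the test. MXD1, which competes with MYC for MAX, had 82.6 ± 0.896 CPM with cadmium and 15.8 ± 0.887 CPM in water (log2 fold change 2.38 ± 0.04), whereas MYCL and MGA fell by 0.45 and 0.23.

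Housekeeping groups changed by small amounts. Of 29 cytosolic ribosomal proteins 22 were called higher and none lower at a median of 0.10, but 1 was higher and 3 lower at a median of -0.02 under scaling by total counts. Of 13 mitochondrially encoded mRNAs 7 were called higher and none lower at a median of 0.09, against 2 higher and 4 lower at -0.02 under that scaling. RPS23 and MT-CO1 changed by 0.21 ± 0.03 and 0.19 ± 0.03. Of 23 ribosome biogenesis factors 9 fell and 3 rose (18 and 1 under that scaling), with RRS1, POLR1B and POLR1A lower by 0.63, 0.44 and 0.36. Of 28 mitosis genes 13 fell and 3 rose (median -0.09), and 23 fell and 2 rose (median -0.20) under scaling by total counts. Among those that fell were MKI67, CDC20 and PLK1, lower by 0.36, 0.33 and 0.31. DNA replication genes were divided, with 12 of 30 higher and 9 lower (7 and 18 under scaling by total counts), and ORC6 and CDT1 rose by 0.58 and 0.47 while GINS1 fell by 0.39. CCNE2, also on that list and lower by 0.39, had counts on the other strand equal to 33.9% of its count. Of 14 tested histone genes 7 rose and none fell. Their mRNAs mostly lack poly(A) tails and they are near copies, so their counts from these poly(A) libraries are uncertain.

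Among the remaining lists, splicing regulators rose in the main. CLK1, a kinase of SR splicing factors, had 131 ± 1.46 CPM with cadmium and 38.8 ± 0.542 CPM in water (log2 fold change 1.75 ± 0.04), RSRC2 and TRA2B changed by 1.45 and 0.52, and CLK2 fell by 0.63. In that list 12 of 16 rose and 3 fell (8 and 3 under scaling by total counts). Cholesterol genes were divided, with 6 of 24 higher and 10 lower (4 and 13 under scaling by total counts). Among all tested genes 23.2% were higher and 23.8% lower. HMGCS1, an enzyme early in cholesterol synthesis, rose by 0.64, while MVK fell by 0.58, a gene with counts on the other strand equal to 25.0% of its count. Of 18 hypoxia response genes 8 rose and 6 fell (7 and 9 under scaling by total counts). VEGFA, an angiogenic growth factor, ADM and PFKFB3 rose by 1.22, 0.86 and 0.65, and HILPDA fell by 1.02.

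At the median, genes that moved by 2-fold or more were shorter in the genome and had fewer exons than all tested genes. Among protein-coding genes the median genomic span was 17.1 kb for those higher and 9.11 kb for those lower, beside 33.2 kb for all tested genes in GENCODE 29. Their median largest exon number was 5.5, 4 and 9 in the same order, and 7.33%, 13.3% and 2.03% had 1 exon. At 5 CPM or more the spans were 14.8, 9.62 and 36.3 kb in that order. Long non-coding RNAs made up 27.9% of the higher and 29.7% of the lower genes, beside 15.7% of all tested genes. At 5 CPM or more they made up 5.86%, 4.82% and 2.40%. These are descriptions over genes, which are not independent replicates. The cAMP response element TGACGTCA stood in 6.10% of 492 promoters of genes higher by 2-fold or more, in none of 160 of those lower, and in 1.98% of all promoters and 3.11% of those of tested genes. The AP-1 element TGANTCA stood in 10.8% of the higher, 5.62% of the lower and 4.83% of the tested genes' promoters, and in 7.76% of all promoters.

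The cadmium response was then set against that of wild-type cells. An effect of losing LATS1 and LATS2 cannot be told apart here from another difference between the lines. The libraries of the 2 genotypes are separate, so their responses share no sample. In wild type 11973 genes passed the test (61.7%), with 5824 (30.0%) higher and 6149 (31.7%) lower. Of the 9110 genes called in knockout 7605 (83.5%) were also called in wild type, which is 63.5% of those called there. Of these 7605 genes 7337 changed in the same direction and 268 in opposite directions. Across 11276 genes with 5 CPM or more, Pearson's r between the responses was 0.876, and across all 19393 tested genes it was 0.727, both descriptions over genes. The difference itself, tested as an interaction, passed for 5449 genes (28.1%), of which 2720 (14.0%) were higher in knockout and 2729 (14.1%) lower. When the fit held only the 4 groups compared, 2195 were higher and 3328 lower. Differences of 2-fold or more were lower in knockout for 469 genes (2.42%) and higher for 211 (1.09%). Of the 951 genes that rose by 2-fold or more in knockout 812 also rose in wild type, and the rise was larger in knockout for 76 and smaller for 236.

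**Figure D4:**
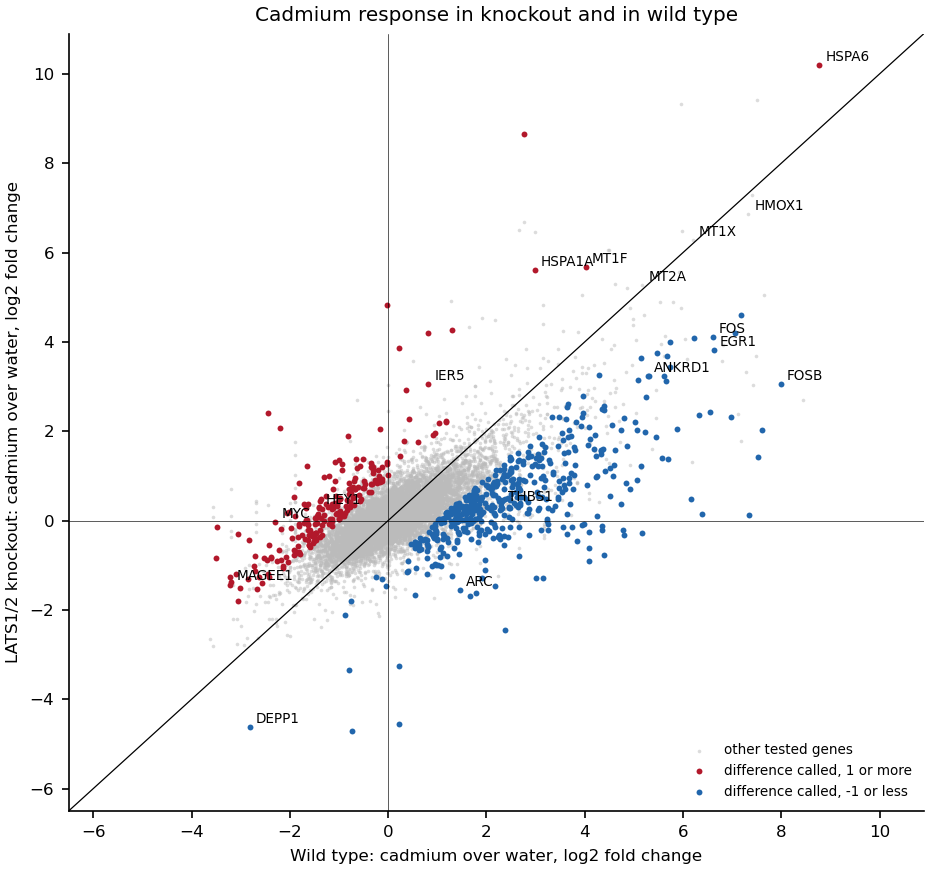
Log2 fold change of cadmium over water in LATS1/2 knockout (y axis) against that in wild type (x axis) for 19393 tested genes, with the diagonal marking equal responses. Coloured genes passed the test of the difference at 1 or more in size, 211 of them above the diagonal (red) and 469 below it (blue). FOSB and EGR1 lie below the diagonal, and HSPA1A, MYC and IER5 above it.

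Responses of immediate early genes were lower in knockout than in wild type. FOSB had 13.1, 12.2 and 13.5 CPM with cadmium and 1.48, 1.57 and 1.61 CPM in water in knockout, against 351, 324 and 351 CPM and 1.61, 1.39 and 1.11 CPM in wild type. The difference of the responses, knockout minus wild type, was -4.94 ± 0.31 on the log2 scale (adjusted p = 1.9e-15). EGR1 reached 85.2 ± 7.48 CPM with cadmium in knockout, against 766 ± 26.4 CPM in wild type, from similar water levels of 6.03 ± 1.02 and 7.73 ± 0.634 CPM (difference -2.80 ± 0.14). FOS reached 27.7 ± 0.980 CPM in knockout and 117 ± 4.90 CPM in wild type (difference -2.49 ± 0.20). ARC went in opposite directions. In wild type it had 6.42, 6.05 and 7.64 CPM with cadmium and 2.49, 2.21 and 2.58 CPM in water, a rise, where it fell in knockout (difference -3.03 ± 0.13). Over the immediate early list the response was lower in knockout for 16 of 22 genes and higher for 1, with a median difference of -0.72 beside 0.01 over all tested genes. In the FOS and JUN list it was lower for 6 of 8 and higher for 1.

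Responses of YAP and TAZ targets were often lower in knockout as well. The response was lower there for 14 of 22 targets and higher for 2 (median difference -0.32). ANKRD1 had 4029 ± 59.1 CPM with cadmium and 431 ± 21.7 CPM in water in knockout, against 1817 ± 22.9 CPM and 46.7 ± 4.37 CPM in wild type. The fold was thus smaller in knockout (difference -2.05 ± 0.19) although the level with cadmium was higher there. THBS1, a matricellular protein that is not on this list, had 115 ± 3.75 CPM with cadmium and 91.0 ± 2.28 CPM in water in knockout. In wild type it had 13.9 ± 1.70 and 2.81 ± 0.379 CPM (difference -1.97 ± 0.12). ADAMTSL4 and BEST1 were also among the 8 lowest differences. ADAMTSL4 holds many reads from the other strand. On counts of the strand with most reads its difference was 0.50 in place of -2.58, so its value cannot be given to the gene. For BEST1 counts on the other strand equalled 15058% of its count, so that count leaves most of them out. Its difference kept direction and call on the strand with most reads, but its size is uncertain.

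HSPA1A, MYC and IER5 led the named genes whose response was higher in knockout. HSPA1A had 91.8, 89.8 and 91.2 CPM with cadmium in knockout, against 13.2, 12.6 and 14.8 CPM in wild type, and the water levels were 1.87 ± 0.122 and 1.69 ± 0.313 CPM (difference 2.62 ± 0.23, adjusted p = 1.5e-11). Its near copy HSPA1B, which had far more counts, differed by 0.26 ± 0.06, and how reads that fit both genes were counted is not stated, so the value of HSPA1A is uncertain. MT1F reached 90.9 ± 1.80 CPM in knockout and 6.09 ± 0.453 CPM in wild type (difference 1.66 ± 0.36). Its water levels also differed, at 1.74 ± 0.233 CPM in knockout and 0.360 ± 0.116 CPM in wild type. The differences of MT2A and MT1X, 0.10 ± 0.09 and 0.08 ± 0.13, did not pass the test. MYC, a transcription factor that promotes growth, did not pass the test in knockout, as given above. In wild type it fell to 13.4, 14.8 and 12.5 CPM with cadmium, against 64.2, 70.1 and 65.3 CPM in water (difference 2.27 ± 0.08). IER5, a regulator of HSF1, had a difference of 2.23 ± 0.05, and HEY1, a Notch target, one of 1.68 ± 0.10, since it rose in knockout and fell in wild type. MAGEE1, PLAT and FZD2 fell less in knockout than in wild type, with differences of 1.78, 1.57 and 1.56. LATS2 itself, a YAP target as well as a YAP kinase, had a lower response in the cells labelled as its knockout (difference -0.92 ± 0.08), and LATS1 did not differ past the test (-0.04 ± 0.06).

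Counts for several housekeeping and stress lists follow, beside 14.1% of all tested genes with a lower and 14.0% with a higher response in knockout. The response was lower in knockout for 9 of 13 mitochondrially encoded mRNAs and higher for none (median difference -0.26), for 10 of 16 CLK kinases and SR factors and higher for 2, for 10 of 33 proteasome subunits and higher for 2, and for 13 of 26 genes of the integrated stress response and higher for 6. TRIB3, for example, had 138 ± 3.98 CPM with cadmium and 27.5 ± 1.95 CPM in water in knockout, against 328 ± 11.8 and 21.4 ± 0.488 CPM in wild type (difference -1.62 ± 0.08). The response was higher in knockout for 11 of 22 genes of the endoplasmic reticulum list and lower for 4, and higher for 7 of 16 Notch genes and lower for 2. TRIB3 was chosen as an example after its values were seen.

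Cadmium was last set against zinc in the same knockout cells, at doses that differ (50 uM and 250 uM), so that metal and dose cannot be told apart. The test passed for 9348 genes (48.2%), of which 4645 (24.0%) were higher with cadmium and 4703 (24.3%) lower. Changes of 2-fold or more were 530 higher (2.73%) and 717 lower (3.70%). MT2A and MT1X differed by little between the metals. MT2A had 1043 ± 30.7 CPM with cadmium and 1286 ± 52.5 CPM with zinc (log2 fold change -0.30 ± 0.05), and MT1X 414 ± 12.5 and 381 ± 8.66 CPM (0.12 ± 0.04). Both differences passed the test in opposite directions. Of the 6 metallothioneins tested 4 were higher with cadmium than with zinc and 1 was lower. MT1F and MT1G differed by 0.25 and 0.24. MT1B, at low levels, differed by 3.10 ± 0.29, with 2.58 ± 0.567 CPM with cadmium and 0.298 ± 0.0858 CPM with zinc. SLC30A2 was lower with cadmium, at 56.0 ± 1.82 CPM, against 167 ± 3.08 CPM with zinc, and HMOX1 higher, at 709 ± 18.7 CPM, against 246 ± 14.9 CPM with zinc.

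ATF4 targets were higher with cadmium than with zinc. Of 26 genes of the integrated stress response list 18 were higher and 5 lower, with a median of 0.68 beside 0.00 over all tested genes. DDIT4 had 106, 90.3 and 91.8 CPM with cadmium, against 12.3, 13.2 and 11.5 CPM with zinc and a mean of 12.4 ± 0.711 CPM in water (cadmium over zinc 2.97 ± 0.10). STC2, TRIB3 and CHAC1 differed by 2.59, 2.18 and 2.11. Of 12 serine and one-carbon enzymes 10 were higher with cadmium and none lower, and of 10 amino acid transporters 8 were higher and 1 lower. BMP genes differed in the same direction for 12 of 13 members, with 1 lower. SMAD7 had 124, 121 and 118 CPM with cadmium, against 30.0, 27.3 and 26.4 CPM with zinc and 28.0, 30.2 and 30.1 CPM in water, and SMAD6 113 ± 1.53, 31.9 ± 1.04 and 92.3 ± 2.15 CPM. TEX19 and the antisense transcript FBXL19-AS1 differed by 1.99 and 1.97. Of 28 mitosis genes 22 were higher with cadmium and 3 lower, and so were 13 and 2 of 16 CLK kinases and SR factors, 15 and 2 of 23 ribosome biogenesis factors and 12 and 3 of 20 tRNA synthetases. These differences also hold the response to zinc. Against water, 23 mitosis genes fell and 2 rose with zinc, where 13 fell and 3 rose with cadmium. With zinc 16 ribosome biogenesis factors fell and 2 rose, and 10 BMP genes fell and none rose. For CLK kinases and SR factors 10 fell and 4 rose with zinc, and for tRNA synthetases 9 fell and 6 rose.

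Other groups were lower with cadmium than with zinc. Of 22 genes of the endoplasmic reticulum's unfolded protein response 18 were lower and 2 higher (median -0.33). Against water, 20 of these genes rose and 1 fell with zinc, where 10 rose and 2 fell with cadmium. All 10 regulators of mRNA decay were lower, led by ZFP36 with 28.2 ± 1.98 CPM with cadmium, against 123 ± 8.30 CPM with zinc. Of 22 immediate early genes 15 were lower and 6 higher. EGR1 had 85.2 ± 7.48 CPM with cadmium and 368 ± 35.3 CPM with zinc, and EGR2 and EGR3 differed by -3.69 and -2.88. ARC, lower with cadmium than in water, was higher with zinc, at 44.5, 50.8 and 51.9 CPM. ALOXE3, MIR503HG and ZNF836 were the other genes among the 8 lowest, at -2.59, -2.17 and -2.07. The same direction held for 11 of 16 Notch genes, with 3 higher, for 10 of 14 members of the phosphatase and Sprouty list, with 2 higher, for 9 of 11 DNAJ cochaperones, with 2 higher, and for 9 of 14 histone genes, with none higher. DUSP1 was one of the 2 phosphatase list members that were higher with cadmium than with zinc, at 1.43 ± 0.08, and DNAJB1 had 5747 ± 102 CPM with cadmium and 6397 ± 159 CPM with zinc.

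**Figure D5:**
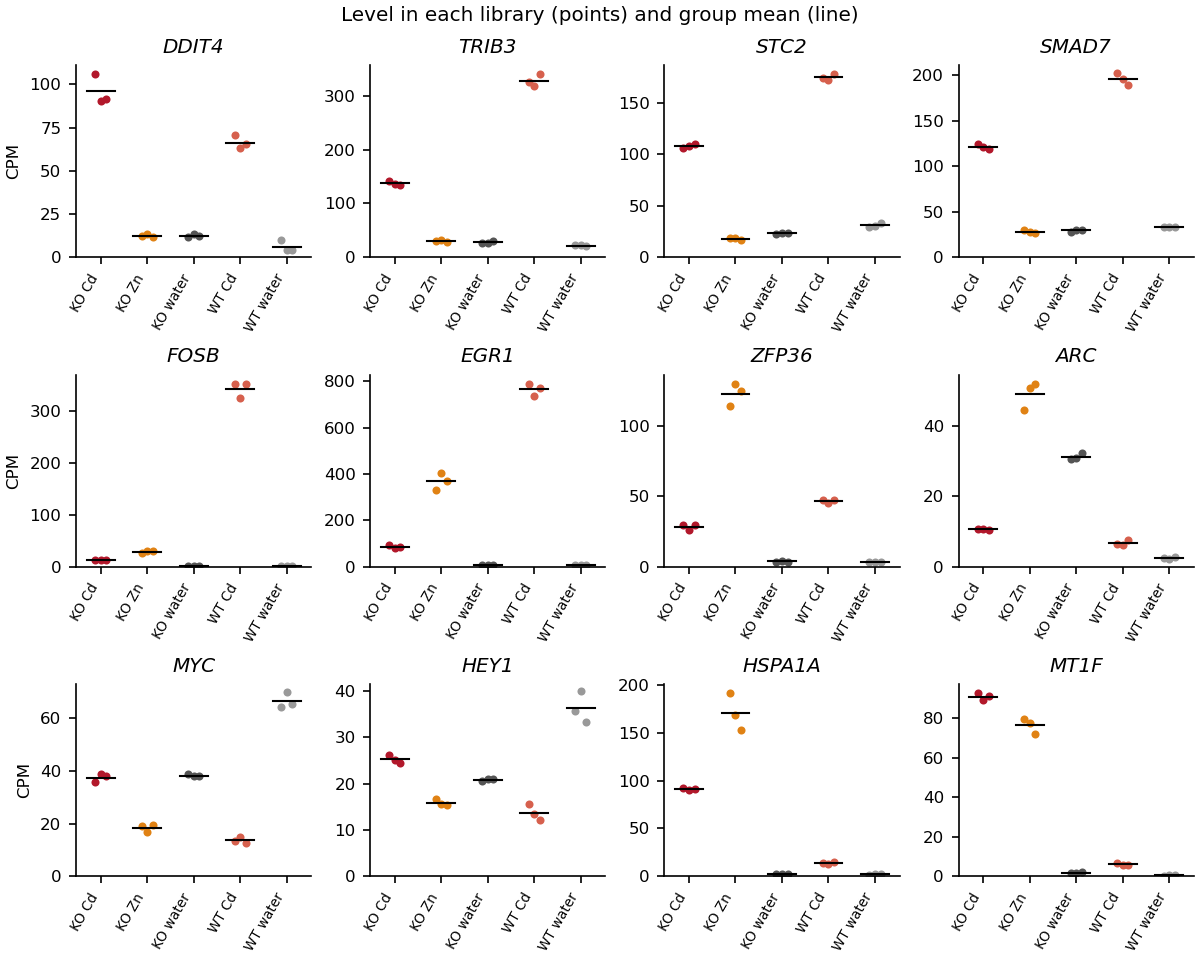
Level of 12 genes in each library, in CPM on linear axes from 0, for knockout (KO) with cadmium (Cd), zinc (Zn) and water and for wild type (WT) with cadmium and water, with points for the 3 libraries and a line at their mean. In knockout, DDIT4, TRIB3, STC2 and SMAD7 stand higher with cadmium than with zinc or in water, EGR1, ZFP36 and ARC stand lower with cadmium than with zinc, and MYC had 37.5 ± 1.49 CPM with cadmium and 38.2 ± 0.432 CPM in water.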

How the data were processed

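RNA of 18 libraries was extracted with TRIzol and made into stranded mRNA libraries, per the labels' protocols. The submitters' processing notes name STAR, hg38 and GRCh38.p13, while the tool that counted reads is not stated in the sources used here. The authors deposited raw counts per Ensembl gene for the whole series, which equal the count column of each library's file that ignores strand; the other columns of those deposited counts give each strand alone, and the weaker one held 5.2 to 5.9% of counts. The tables hold no row without a gene ID.

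From the counts, edgeR 4.0.16 (R 4.3.3) fitted 1 mean per group over 6 groups and 18 libraries, which share the estimate of spread, with TMM scaling, filterByExpr (minimum count 10), the quasi-likelihood test and Benjamini-Hochberg adjustment over 19393 genes (threshold 0.05). Standard errors were derived from the log2 fold change and F and are approximate, most of all at low counts. The interaction and the cadmium and zinc contrasts came from the same fit. The cadmium and zinc responses share the water libraries and were compared directly. The script was tested on simulated data. Per-library shares were compared with exact permutation tests. Counts of genes at 0 to 3 were given exact 95% counting intervals or a floor of 3 counts, which cover counting error only, since reads without molecular identifiers are not independent molecules. RefSeq promoters (GRCh38.p14, matched by symbol) were searched for fixed letters on both strands. Where a symbol had more than 1 promoter, only the first was used.

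Genes were named as the 15 highest and 15 lowest log2 fold changes, up to 4 per list with the largest change, the 8 highest and 8 lowest differences between genotypes and between metals, LATS1, LATS2 and all metallothioneins; some genes that met this rule are not reported here. The first 2 kinds required 5 CPM over the 6 libraries, an adjusted p under 0.05 and no overlap between groups, and the third 5 CPM and an adjusted p under 0.05. The members and the 44 gene lists were chosen with earlier results of these data known. Replicate numbers were in the labels. Same-numbered cadmium and water libraries deviated together very weakly (r from 0.00498 to 0.0368), so the main fit did not pair them. A weak pairing is not excluded. The share of the 50 genes with most counts fell from replicate 1 to 3 with cadmium (15.1 to 14.7%) and in water (12.6 to 12.2%). Alternatives were DESeq2 1.42.0, other scalings, filters, a strand and model choices and leaving out each library. Figures were drawn with matplotlib 3.10.9.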

Additional observations from a re-analysis of the deposited data

Results flagged for a closer look

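Among the genes with the highest and lowest changes in a comparison, the cadmium response of 22 differed between LATS1/2 knockout and wild type by 1 or more in size on the log2 scale with an adjusted p under 0.05 in edgeR's interaction test, which flagged them for a closer look. Smaller differences that passed the test, and genes named only as list members, are not given here. The response was lower in knockout on the log2 scale, knockout minus wild type, for FOSB (-4.94), ARC (-3.03), EGR1 (-2.80), ADAMTSL4 (-2.58), FOS (-2.49), EGR2 (-2.26), ANKRD1 (-2.05), THBS1 (-1.97), BEST1 (-1.95), EGR3 (-1.85), MAFF (-1.75) and TRIB3 (-1.62). DEPP1, which fell in both genotypes, fell further in knockout (-1.81), and had 5.75 ± 0.629 CPM with cadmium and 143 ± 1.76 CPM in water in knockout, against 0.670 ± 0.195 and 4.74 ± 0.450 CPM in wild type. The difference was positive for HSPA6 (1.42), FZD2 (1.56), PLAT (1.57), MT1F (1.66), HEY1 (1.68), MAGEE1 (1.78), IER5 (2.23), MYC (2.27) and HSPA1A (2.62). For FZD2, PLAT and MAGEE1 a positive value means a smaller fall in knockout. ADAMTSL4 shares reads with the other strand, and its value cannot be given to the gene. BEST1 kept direction and call on the strand with most reads, but its counts on the other strand far exceed its own count, so its size is uncertain.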

How the results depend on the processing

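The count of 9110 genes called between cadmium and water in knockout was 9066 with DESeq2's size factors in edgeR, 8768 without the filter, 9158 with only the groups compared, 8955 on the strand with most reads, 8284 with DESeq2, and 8215 to 8451 without 1 library at a time. Scaling by library size alone gave 10390, of which 2989 higher and 7401 lower. A filter of 5 CPM in 3 libraries, which tests fewer genes, left 310 genes higher and 93 lower by 2-fold or more, in place of 951 and 314. The interaction gave 4716 to 5244 and cadmium against zinc 8448 to 8776 genes without 1 library at a time. A weak pairing by replicate number is not excluded by the check made. With the replicate block the counts were 9301, 5698 and 9570 for cadmium against water, the interaction and cadmium against zinc. Each was higher than without the block. Of 2433 values recomputed for 174 genes named between cadmium and water 2426 kept direction and call. Under library size alone MT-CO2 reversed to -0.0018, and RPL5 (0.02, adjusted p = 0.418), RPL30 (0.04, 0.289), RPL23 (0.04, 0.186) and MT-CYB (0.01, 0.824) were no longer called by edgeR. Without the water library of replicate 3, COL3A1 (-0.17, adjusted p = 0.0823) and MT-CO2 (0.07, 0.084) were no longer called. Of 320 values of the 16 genes named for the interaction 1 reversed, ADAMTSL4 to 0.50 on the strand with most reads (adjusted p = 0.188), and all 224 for cadmium against zinc kept direction and call. The cause of these changes was not tested, other than the fewer genes tested. Depth limits the metallothioneins and HSPA7 that had 0 to 2 counts in water.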
